A study of Macaca mulatta with 27 samples.

Results

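The 4i/L/b cells, made from rhesus macaque pluripotent stem cells (PSCs) by a change to a medium meant to bring on the naive state, were compared with primed cells by bulk RNA-seq. The comparison used 9 of the 27 libraries of the series: the 3 libraries of the 4i/L/b protocol and the 6 libraries of primed cells, chosen by their labels with no measured value. The 18 other libraries, 3 for each of E-NHSM, NHSM-v, TL2i, t2iLGöY, LCDM (EPS) and TL-CDK8i, served to show where 4i/L/b differed from other media. The question was how the transcriptome of 4i/L/b cells differed from that of the cells before the change of medium.

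All cells came from LyonES-tGFP-(S3), a clone of the rhesus embryonic stem cell line LyonES that carries tauGFP under the CAG promoter, active in nearly all cells, and a lentiviral STAT3-ER T2, a STAT3 fused to an estrogen receptor domain that tamoxifen switches on. The line is 1 clone, so differences between clones or animals were not covered. No tamoxifen was given to 4i/L/b cells, so the fusion protein was not switched on, whereas TL2i combines tamoxifen, LIF and inhibitors of MEK and GSK3β. TL-CDK8i is a variant of TL2i in which an inhibitor of the kinases CDK8 and CDK19 takes the place of those of MEK and GSK3β. Primed cells were split by hand as clumps and the cells of the other media by enzyme as single cells, so passaging differs together with the medium. The primed libraries are 3 named J and 3 named K; the labels do not say what the letters stand for, and all 6 were taken as 1 group. Separate cultures are not stated for the libraries of a group, so p-values measure the spread between these libraries, which may be technical.

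As background, primed PSCs resemble the epiblast after implantation and rely on FGF-MEK-ERK and Nodal-Activin signals, whereas naive PSCs resemble the epiblast before implantation. The 4i/L/b medium holds inhibitors of MEK, GSK3, p38 and JNK together with LIF, a cytokine that activates JAK-STAT3, and bFGF. Blocking GSK3 keeps β-catenin from being degraded, so that genes bound by TCF/LEF factors are transcribed, while blocking MEK lowers the feedback genes that ERK turns on, and p38 and JNK act on the AP-1 factors.

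The 4i/L/b libraries held 10547609, 8375416 and 10610790 counts and the primed libraries 7111886 to 15183387 (median 10606171.5). Levels are given as CPM, counts scaled to library size, and are not corrected for gene length, so they compare libraries and not genes. A group with at most 3 counts of a gene in every library was taken as being at the floor, which was 0.288, 0.365 and 0.289 CPM in the 4i/L/b libraries and 0.207 to 0.429 CPM in the primed ones. Fold changes against a group at the floor are given as bounds against 3 counts per library, and cover counting error only. The 10 genes with most counts took 5.01%, 5.70% and 5.44% of the 4i/L/b libraries and 3.11% to 3.28% of the primed ones. Pearson's r of log2 CPM across genes, which are not independent replicates, was 0.989 to 0.991 among 4i/L/b libraries, 0.941 to 0.976 among primed libraries and 0.840 to 0.871 between the groups. Among primed libraries J3 stood apart, with r of 0.941 to 0.948 to the other 5, which had 0.960 to 0.976 with each other. It also had the fewest counts, 7111886, and the fewest genes counted, 12332, and several calls below change without it. A test of primed K against primed J called 3.73% of 12559 genes, with 2.03% above and 1.70% below J.

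Of 13558 genes tested, 55.6% passed an adjusted p of 0.05, 26.6% higher and 29.0% lower in 4i/L/b cells. Those 26.6% and 29.0% are the background for each count of list members below, and the median log2 fold change of all genes tested was 0.01. Among the genes that passed, 1185 were at least 4-fold higher and 608 at least 4-fold lower. In 4095 genes, 30.2% of those tested, each 4i/L/b library lay above each primed library, and in 3451, 25.5%, each lay below. Genes described as higher, lower, risen or fallen are those that passed this test.

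Most of the transcription factors and RNA-binding proteins that mark pluripotent cells were lower in 4i/L/b cells, some of them at or near the floor. Of 14 core pluripotency factors, 13 were lower, with a median log2 fold change of -6.55, or -4.60 with genes at the floor taken at their bound. POU5F1, the OCT4 factor without which the pluripotent state is not kept, stood at 0.576, 0.486 and 1.64 CPM in the 4i/L/b libraries and at 1104 to 1295 (median 1177) CPM in the primed ones. NANOG, PRDM14 and TDGF1 were at the floor in 4i/L/b cells, and their primed levels were 107 to 157 (median 135), 203 to 354 (median 279.6) and 180.4 to 219.8 (median 199) CPM. These were at least 427-fold, 882-fold and 636-fold lower. In none of these 4 genes did a 4i/L/b library come near the primed range. Bulk RNA cannot tell apart fewer cells of a type and less RNA per cell, which holds for every list below.

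Part of the list was kept at a reduced level. LIN28A, which blocks maturation of let-7 microRNAs, measured 42.7, 40.8 and 43.98 CPM in 4i/L/b and 479 to 665 (median 585) CPM in primed cells (log2 fold change -3.80, SE 0.13, edgeR quasi-likelihood test with Benjamini-Hochberg adjusted p = 5.9e-11). Its paralogue LIN28B measured 157, 118 and 128 CPM against 278 to 450.2 (median 383) CPM (log2 fold change -1.53, SE 0.16, edgeR quasi-likelihood test with Benjamini-Hochberg adjusted p = 3e-06). SALL4 measured 23.5, 25.5 and 22.2 CPM against 301 to 420.15 (median 345) CPM (log2 fold change -3.92, SE 0.14, edgeR quasi-likelihood test with Benjamini-Hochberg adjusted p = 8.9e-11). All 3 genes were counted in each 4i/L/b library, below each primed library. DPPA4 and L1TD1 fell further, with log2 fold changes of -6.59 and -6.51, whereas SOX2, which neural progenitors also use, had -1.91. TERT was the member not called, with 1.64 ± 1.52 CPM in 4i/L/b (SD, n = 3) and 3.896 ± 1.21 CPM in primed cells (SD, n = 6).

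The labels name the 4i/L/b cells naive cells and embryonic stem cells, which the defining markers of pluripotent cells go against: NANOG was at the floor and POU5F1 close to it. Summed over the 14 factors, the 4i/L/b libraries held 329, 292 and 289 CPM, and the primed libraries 4843.5 to 5514.5 CPM (median 5100.4). The cells are therefore called 4i/L/b cells here, after their medium.

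Few markers of the naive state could be tested. Of 14 naive-state factors found in the table, 6 had enough counts to be tested, 2 were higher (3 in 4 of the alternatives) and 1 was lower, with a median log2 fold change of 1.42 against 0.01 for all genes. KLF5, a factor of early embryonic and epithelial cells, measured 179.9, 146 and 144 CPM in 4i/L/b and 2.29 to 22.4 (median 6.202) CPM in primed cells (log2 fold change 4.00, SE 0.42, edgeR quasi-likelihood test with Benjamini-Hochberg adjusted p = 2.7e-06). TBX3 measured 9.32, 5.96 and 7.03 CPM against 0 to 0.691 (median 0) CPM (log2 fold change 5.44, SE 1.06, edgeR quasi-likelihood test with Benjamini-Hochberg adjusted p = 0.00065). Both were above each primed library. TFE3, lower by a smaller amount, measured 59.4, 56.4 and 61.4 CPM against 65.4 to 90.7 (median 78.1) CPM (log2 fold change -0.45, SE 0.12, edgeR quasi-likelihood test with Benjamini-Hochberg adjusted p = 0.0071). KLF4 was not called, at 4.03, 2.43 and 3.46 CPM against 0 to 2.43 (median 0.701) CPM, but without primed J3, the highest primed library, its log2 fold change was 2.64 and it was called. TFAP2C, not called either, measured 17.6, 22.4 and 24.5 CPM against 7.57 to 39.96 (median 14.3) CPM, and was called higher, with 0.84, against primed J only. Among the 8 members not tested, KLF17, FGF4 and NR0B1 had 0 counts in all 9 libraries, which allows up to the floor of each.

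Genes typical of the primed state were mostly lower. Of 14 tested, 10 fell and 2 rose (median log2 fold change -1.03), and 8 fell when any of the 4i/L/b libraries was left out, while up to 3 rose. PODXL, a sialomucin of the PSC surface, measured 116, 135 and 124 CPM in 4i/L/b and 1517.5 to 2229 (median 1898.5) CPM in primed cells (log2 fold change -3.96, SE 0.12, edgeR quasi-likelihood test with Benjamini-Hochberg adjusted p = 2.5e-11). ZIC2, a zinc finger factor of the primed epiblast, measured 118, 109 and 106 CPM against 445 to 518 (median 492) CPM (log2 fold change -2.16, SE 0.08, edgeR quasi-likelihood test with Benjamini-Hochberg adjusted p = 1.7e-10). OTX2, a homeobox factor of the same stage, had a log2 fold change of -2.18 and the surface protein CD24 of -2.37. In the opposite direction, FAT3, a large protocadherin, measured 102, 110.5 and 95.8 CPM against 6.7001 to 12.7 (median 10.035) CPM (log2 fold change 3.34, SE 0.17, edgeR quasi-likelihood test with Benjamini-Hochberg adjusted p = 1.9e-09). SOX11 also rose, with a log2 fold change of 0.72. The groups did not overlap in any of these 6 genes.

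Of 8 DNA methylation genes tested, 5 were lower and 1 was higher (median log2 fold change -0.47). DNMT3B had the largest change, with a log2 fold change of -6.29, and TET2 was the gene that rose, with 1.93. Its paralogue TET1 fell, from 167 to 261 (median 216) CPM in primed cells to 48.996, 41.1 and 45.7 CPM in 4i/L/b cells (log2 fold change -2.33, SE 0.14, edgeR quasi-likelihood test with Benjamini-Hochberg adjusted p = 1.2e-08). The maintenance methyltransferase DNMT1 measured 249, 220.2 and 224 CPM against 296 to 354 (median 321) CPM (log2 fold change -0.52, SE 0.09, edgeR quasi-likelihood test with Benjamini-Hochberg adjusted p = 0.00014), a smaller change with no overlap of the groups. TDG, the glycosylase that removes oxidised methylcytosine, had a log2 fold change of -0.42.

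**Figure D1:**
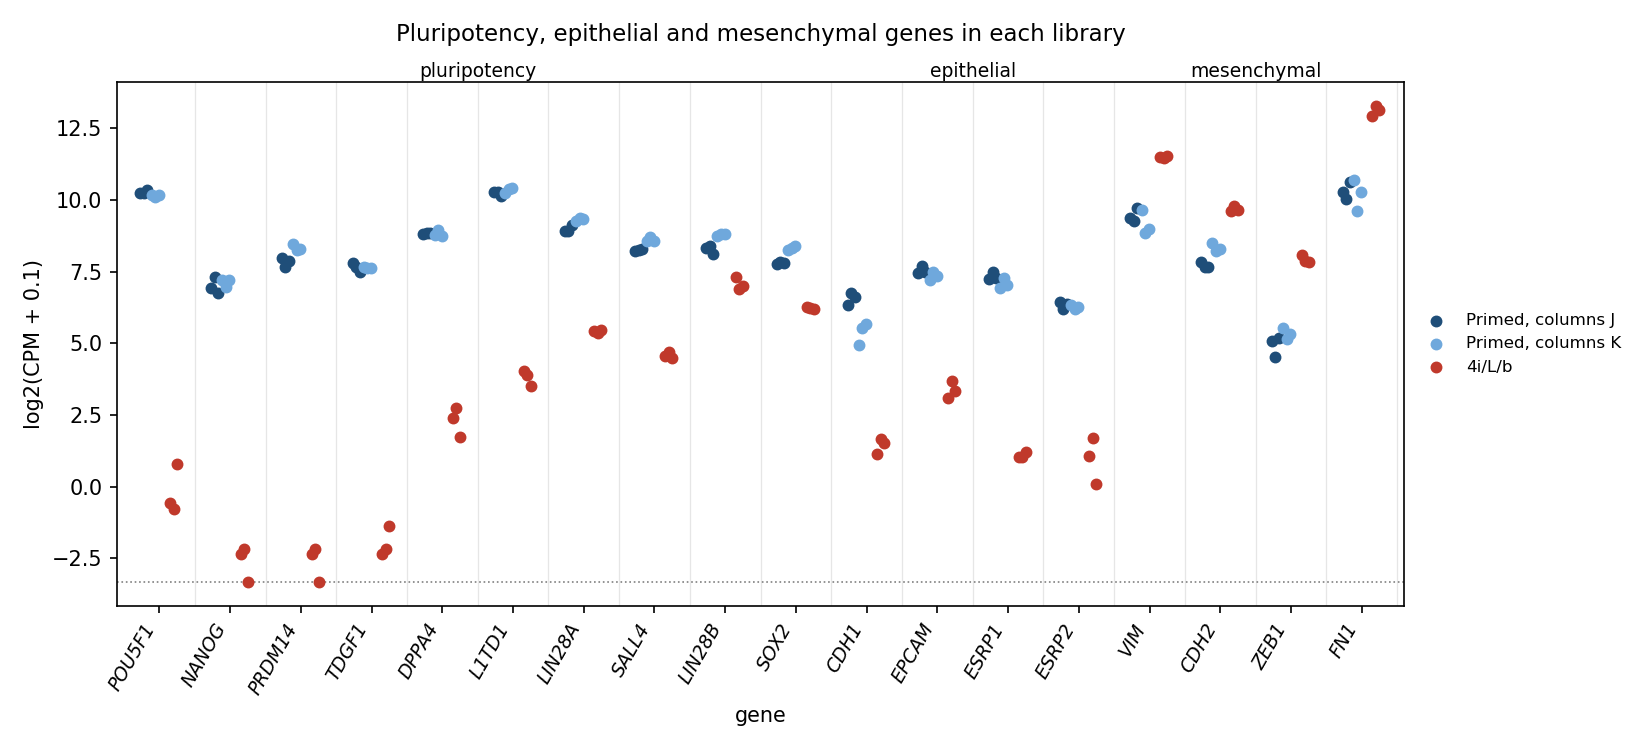
Each point is 1 library, as log2(CPM + 0.1), for pluripotency, epithelial and mesenchymal genes; dark blue marks primed J, light blue primed K and red 4i/L/b, and the dotted line is 0 counts. NANOG and PRDM14 of 4i/L/b lie at or just above the dotted line, while VIM, CDH2, ZEB1 and FN1 lie above the primed points.

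Of 17 MEK-ERK feedback and target genes, 8 were lower and 4 higher (median log2 fold change -0.32, and -0.46 to -0.20 over the alternatives). Without 4i/L/b replicate 2 or 3, 6 were lower. With all 9 libraries, the share of higher genes was not above the 26.6% of all genes. ETV4, an ETS factor induced by FGF signalling, measured 2.02, 4.497 and 3.37 CPM in 4i/L/b and 146 to 217 (median 180.1) CPM in primed cells (log2 fold change -5.85, SE 0.23, edgeR quasi-likelihood test with Benjamini-Hochberg adjusted p = 2.1e-10). EGR1, an immediate-early gene of the pathway, measured 465, 403 and 439 CPM against 1107 to 1771 (median 1489) CPM (log2 fold change -1.78, SE 0.14, edgeR quasi-likelihood test with Benjamini-Hochberg adjusted p = 1.7e-07). SPRY4, a feedback inhibitor, measured 139, 124 and 120.5 CPM against 251 to 488 (median 407) CPM (log2 fold change -1.64, SE 0.18, edgeR quasi-likelihood test with Benjamini-Hochberg adjusted p = 3.3e-06). These 3 genes were below the primed range in each 4i/L/b library, as was DUSP6, the ERK phosphatase, with a log2 fold change of -0.86. Among the 4 higher genes, FOSL1, an AP-1 subunit, measured 49.7, 45.9 and 43.6 CPM against 3.78 to 17.97 (median 7.61) CPM (log2 fold change 2.39, SE 0.36, edgeR quasi-likelihood test with Benjamini-Hochberg adjusted p = 6.3e-05). CCND1, the G1 cyclin, measured 666, 597 and 631 CPM against 132 to 242 (median 194) CPM (log2 fold change 1.67, SE 0.16, edgeR quasi-likelihood test with Benjamini-Hochberg adjusted p = 9.1e-07). DUSP4 and PHLDA1 rose as well, with log2 fold changes of 1.28 and 0.80. The summed level of the 17 genes was 3170.3, 2852 and 2973 CPM in the 4i/L/b libraries and 3656 to 4148 CPM (median 3984) in the primed ones.

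Targets of β-catenin were strongly higher. Of 11 Wnt/β-catenin target genes tested, 10 rose (median log2 fold change 4.74, all genes 0.01), and 1 was called lower with primed K only, without primed J3 or in the fit of all 8 groups. AXIN2, a scaffold of the complex that degrades β-catenin and a target in most tissues, measured 215, 212 and 232 CPM in 4i/L/b and 4.43 to 10.6 (median 6.75) CPM in primed cells (log2 fold change 4.91, SE 0.17, edgeR quasi-likelihood test with Benjamini-Hochberg adjusted p = 5.9e-11). LEF1, a partner of β-catenin on DNA, measured 158, 143 and 143 CPM against 0 to 0.887 (median 0) CPM (log2 fold change 9.71, SE 0.46, edgeR quasi-likelihood test with Benjamini-Hochberg adjusted p = 1.2e-09). NKD1, a feedback inhibitor, measured 101, 110.2 and 111 CPM against 2.01 to 4.11 (median 2.54) CPM (log2 fold change 5.24, SE 0.21, edgeR quasi-likelihood test with Benjamini-Hochberg adjusted p = 1.9e-10). For all 3 the lowest 4i/L/b library was far above the highest primed one, and LEF1 had counts in 1 of 6 primed libraries. Secreted antagonists rose too, NOTUM with a log2 fold change of 5.95 and DKK1 with 5.47, as did the stem cell receptor LGR5 with 4.41, the factor SP5 with 4.74 and the receptor TNFRSF19 with 2.59. RNF43 and ZNRF3, ligases that remove Frizzled receptors, had log2 fold changes of 2.25 and 0.92. TCF7 was not called, at 29.3, 20.4 and 24.1 CPM against 13.7 to 51.6 (median 36.4) CPM, and without primed J3 it was called lower with -0.74. The summed level of the list was 966, 1012.5 and 1017 CPM against 120.4 to 181 CPM (median 154).

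Most of the pathway's own ligands, receptors and modulators that were tested rose, but the summed level of the list overlapped with primed cells. Of 24 Wnt ligands, receptors and modulators tested, 16 were higher and 6 lower (median log2 fold change 2.54). The list summed to 1703, 1855 and 1843 CPM in 4i/L/b and 1559 to 1866 CPM (median 1689) in primed cells. WNT3A was at the floor in primed cells and measured 34.8, 29.4 and 36.5 CPM in the 4i/L/b libraries, at least 111-fold higher. WNT1, a ligand of the dorsal neural tube, measured 31.8, 37.3 and 42.5 CPM against 0 to 1.403 (median 0) CPM (log2 fold change 6.49, SE 0.75, edgeR quasi-likelihood test with Benjamini-Hochberg adjusted p = 6.5e-06). WNT4 measured 64.4, 61.99 and 59.8 CPM against 0 to 3.56 (median 1.41) CPM (log2 fold change 5.25, SE 0.55, edgeR quasi-likelihood test with Benjamini-Hochberg adjusted p = 2.3e-06). Each of these ligands was above the primed range in all 3 libraries. RSPO3, which strengthens Wnt signals through LGR receptors, measured 127, 105.5 and 130.4 CPM against 0.112 to 2.48 (median 0.601) CPM (log2 fold change 6.92, SE 0.40, edgeR quasi-likelihood test with Benjamini-Hochberg adjusted p = 7.1e-09). WLS, the carrier needed for Wnt secretion, measured 619.6, 742 and 709.8 CPM against 11.4 to 34.96 (median 19.9) CPM (log2 fold change 4.86, SE 0.25, edgeR quasi-likelihood test with Benjamini-Hochberg adjusted p = 2.6e-09). Among the 6 lower genes were receptors and antagonists of primed PSCs. FZD5 measured 15.8, 17.02 and 15.6 CPM against 235 to 404 (median 304) CPM (log2 fold change -4.30, SE 0.21, edgeR quasi-likelihood test with Benjamini-Hochberg adjusted p = 1.4e-09). SFRP1, a secreted Wnt antagonist, measured 10.95, 15.7 and 14.1 CPM against 285 to 415 (median 332) CPM (log2 fold change -4.68, SE 0.18, edgeR quasi-likelihood test with Benjamini-Hochberg adjusted p = 1.5e-10). SFRP2, FZD7, FZD8 and WNT5A also fell, with log2 fold changes of -2.41, -1.98, -2.75 and -1.11.

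**Figure D2:**
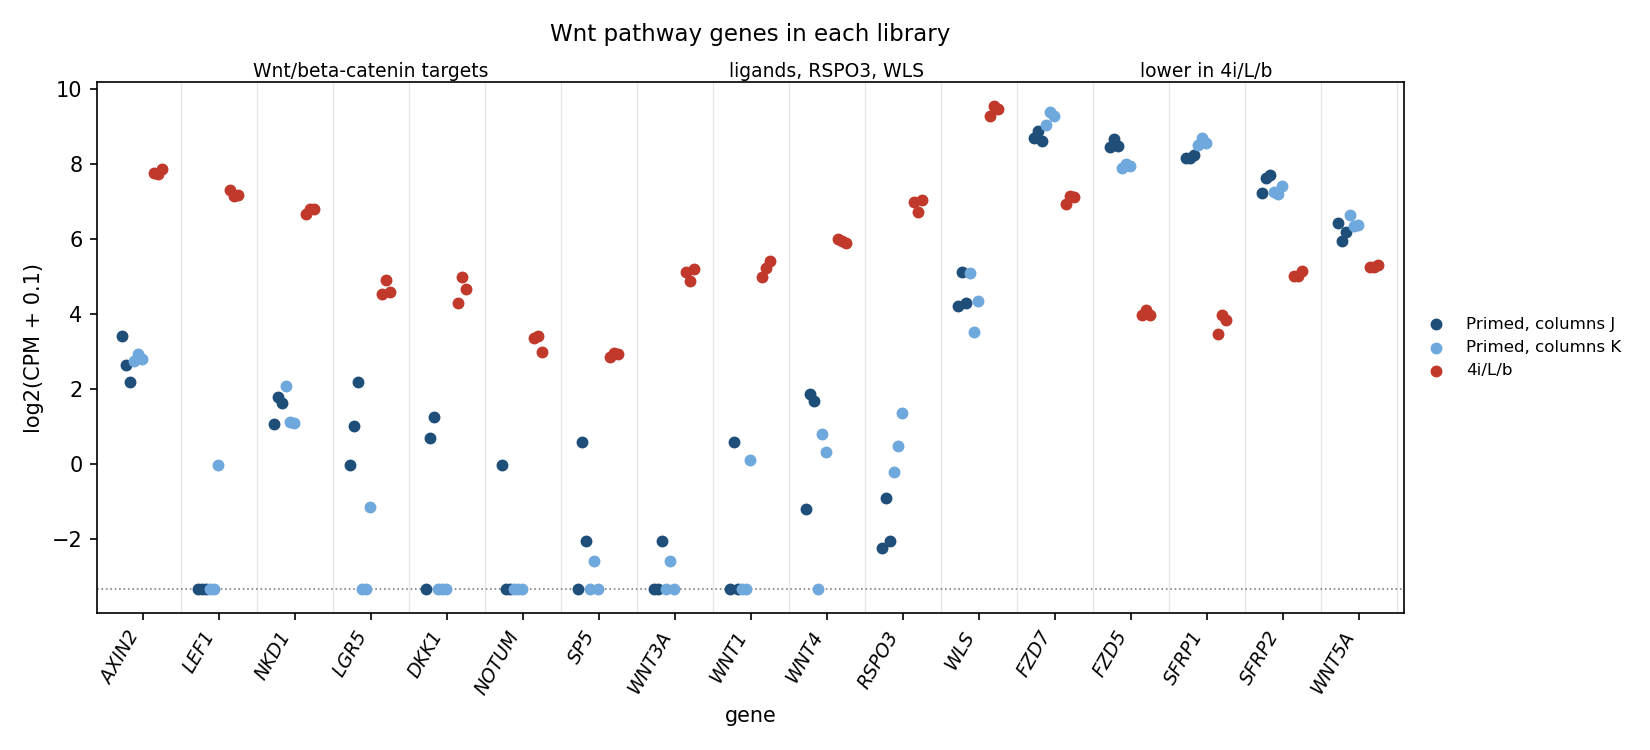
Each point is 1 library, as log2(CPM + 0.1), for Wnt target genes, ligands and receptors; dark blue marks primed J, light blue primed K and red 4i/L/b, and the dotted line is 0 counts. The red points of the targets and of WNT3A, WNT1, WNT4, RSPO3 and WLS lie above all blue points, and those of FZD7, FZD5, SFRP1, SFRP2 and WNT5A below.

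Of 12 LIF-JAK-STAT3 genes, 7 were higher and 2 lower (median log2 fold change 1.08), and 1 was lower when any of the 4i/L/b libraries or primed K1, K2 or K3 was left out, and 3 with primed K only. LIF itself, the cytokine in the medium, measured 112, 114 and 112 CPM in 4i/L/b and 3.94 to 12.3 (median 6.54) CPM in primed cells (log2 fold change 3.94, SE 0.25, edgeR quasi-likelihood test with Benjamini-Hochberg adjusted p = 1.6e-08). IL6ST, the gp130 receptor chain shared by this cytokine family, measured 367, 379.95 and 348 CPM against 32.9 to 92.02 (median 59.7) CPM (log2 fold change 2.53, SE 0.22, edgeR quasi-likelihood test with Benjamini-Hochberg adjusted p = 3.5e-07). STAT3 measured 364, 352 and 348 CPM against 100.2 to 215.5 (median 148) CPM (log2 fold change 1.20, SE 0.20, edgeR quasi-likelihood test with Benjamini-Hochberg adjusted p = 0.00022). In each the 3 libraries lay above all primed ones. Reads of the STAT3-ER T2 transgene may be counted under STAT3 and cannot be told apart from those of the gene. LIFR, the other receptor chain, and the kinase JAK1 rose with log2 fold changes of 1.05 and 1.11. SOCS3, the feedback inhibitor that STAT3 induces, was lower with a log2 fold change of -0.74, though the groups overlapped, and it was not called without any of the 4i/L/b libraries or primed K1, K2 or K3 (-0.79 to -0.55) or with primed J only (-0.29). GBX2, a STAT3 target of mouse PSCs and a hindbrain factor, fell, from 2.46 to 13.1 (median 4.26) CPM to 0.0961, 0.851 and 0.481 CPM (log2 fold change -3.59, SE 0.86, edgeR quasi-likelihood test with Benjamini-Hochberg adjusted p = 0.0029).

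Among 17 AP-1 and stress-kinase genes, 7 were higher and 1 lower (median log2 fold change 0.44). JUN, the main AP-1 subunit and a substrate of JNK, measured 268, 259.6 and 268 CPM in 4i/L/b and 61.4 to 100.1 (median 84.05) CPM in primed cells (log2 fold change 1.65, SE 0.13, edgeR quasi-likelihood test with Benjamini-Hochberg adjusted p = 1.4e-07). FOSL2, its partner, measured 223, 219.99 and 208 CPM against 12.3 to 33.8 (median 26.9) CPM (log2 fold change 3.08, SE 0.23, edgeR quasi-likelihood test with Benjamini-Hochberg adjusted p = 8e-08). ATF3, a stress-induced factor, measured 78.1, 81.1 and 95.3 CPM against 13.1 to 27.6 (median 18.8) CPM (log2 fold change 2.10, SE 0.19, edgeR quasi-likelihood test with Benjamini-Hochberg adjusted p = 6.7e-07). None of these overlapped with primed cells. DUSP1, a phosphatase for p38 and JNK, and the stress gene GADD45A had log2 fold changes of 1.65 and 1.69. FOS was the member that fell, with -0.89.

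Of 13 Nodal-Activin genes, 8 were lower and 2 higher (median log2 fold change -0.74), but 6 were lower when any of the 4i/L/b libraries or primed K3 was left out and with the replicate block. The median was -1.14 with primed J only and -0.54 without 4i/L/b replicate 1 or primed J2. FOXH1, the DNA-binding partner of the SMAD proteins of this pathway, measured 0.480, 1.22 and 1.64 CPM in 4i/L/b and 39.01 to 51.3 (median 40.4) CPM in primed cells (log2 fold change -5.29, SE 0.30, edgeR quasi-likelihood test with Benjamini-Hochberg adjusted p = 5.2e-09). The ligand NODAL measured 12.5, 15.4 and 11.3 CPM against 22.3 to 56.7 (median 36.6) CPM (log2 fold change -1.56, SE 0.28, edgeR quasi-likelihood test with Benjamini-Hochberg adjusted p = 0.00028). INHBA, the subunit that forms Activin A, went the other way, at 280.04, 366 and 378 CPM against 35.5 to 82.4 (median 54.5) CPM (log2 fold change 2.58, SE 0.20, edgeR quasi-likelihood test with Benjamini-Hochberg adjusted p = 1.2e-07). Each 4i/L/b library was outside the primed range for these 3 genes, and SMAD3 had a log2 fold change of 0.76.

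Of 20 BMP pathway genes, 14 were higher and 3 lower (median log2 fold change 2.32), or 2 to 4 lower over the alternatives. BMP7 measured 88.5, 89.5 and 84.1 CPM in 4i/L/b and 6.38 to 14.9 (median 9.33) CPM in primed cells (log2 fold change 3.09, SE 0.20, edgeR quasi-likelihood test with Benjamini-Hochberg adjusted p = 2.7e-08). GREM1, a secreted BMP antagonist, measured 112, 138 and 128 CPM against 5.14 to 23.1 (median 6.82) CPM (log2 fold change 3.71, SE 0.36, edgeR quasi-likelihood test with Benjamini-Hochberg adjusted p = 1.3e-06). The homeobox factor MSX2 measured 15.3, 15.1 and 12.7 CPM against 0 to 0.670 (median 0) CPM (log2 fold change 6.95, SE 0.94, edgeR quasi-likelihood test with Benjamini-Hochberg adjusted p = 2.7e-05). All lay above the primed libraries, with counts of MSX2 in 1 of those 6. The direct targets did not move as 1 group. ID1, an inhibitor of bHLH factors that BMP-SMAD signals induce, measured 5.76, 8.02 and 4.62 CPM against 39.8 to 72.1 (median 61.9) CPM (log2 fold change -3.31, SE 0.25, edgeR quasi-likelihood test with Benjamini-Hochberg adjusted p = 1.1e-07). ID3 fell as well, with a log2 fold change of -1.08, and the ligand BMP4 with -0.86, not called without any of the 4i/L/b libraries or primed K1 or K3 (-0.93 to -0.60), with primed J only (-0.39) or in the fit of all 8 groups (-0.82), while ID2 rose with 1.93.

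Of 14 FGF ligands and receptors tested, 7 were lower and 2 higher (median log2 fold change -0.38). The count of 2 was 1 without 4i/L/b replicate 1 or 3, 4 without primed K3 or with primed K only, 5 with primed J only and 6 in the fit of all 8 groups, so the list was split rather than lower in some settings. FGF2, the bFGF that is also given in the medium, measured 17.2, 16.4 and 15.1 CPM in 4i/L/b and 104 to 276 (median 202) CPM in primed cells (log2 fold change -3.65, SE 0.28, edgeR quasi-likelihood test with Benjamini-Hochberg adjusted p = 1.3e-07). FGF19 measured 2.79, 3.28 and 2.502 CPM against 32.4 to 38.7 (median 35.3) CPM (log2 fold change -3.69, SE 0.20, edgeR quasi-likelihood test with Benjamini-Hochberg adjusted p = 3.4e-09). FGF8 fell in the same way, with a log2 fold change of -3.43, and the receptor FGFR2 rose with 0.68. FGF18 rose with 3.46, but was not called without 4i/L/b replicate 1 (3.40) or 3 (3.38). In these 5 genes the groups did not overlap.

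Of 13 Notch pathway genes tested, 8 were higher and 1 lower, or 2 lower without primed J3 (median log2 fold change 1.41, and 2.03 without primed J3). The receptor NOTCH2 measured 656, 754 and 688 CPM in 4i/L/b and 101 to 151 (median 134) CPM in primed cells (log2 fold change 2.37, SE 0.12, edgeR quasi-likelihood test with Benjamini-Hochberg adjusted p = 1.5e-09). Its ligand JAG1 measured 523, 604 and 542 CPM against 75.4 to 148 (median 113) CPM (log2 fold change 2.32, SE 0.17, edgeR quasi-likelihood test with Benjamini-Hochberg adjusted p = 7.5e-08). DLL1, a ligand of neural progenitors, measured 27.96, 29.7 and 26.3 CPM against 0.143 to 2.48 (median 0.866) CPM (log2 fold change 4.48, SE 0.55, edgeR quasi-likelihood test with Benjamini-Hochberg adjusted p = 1.1e-05). All 3 were above the primed range. The effector HES6, a promoter of neuronal differentiation, had a log2 fold change of 3.82, and HES1, a target that holds progenitors back from differentiating, of -1.04.

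Most neural progenitor factors rose. Of 18 neural progenitor factors tested, 13 were higher and 1 lower (median log2 fold change 2.85, and 4.34 with primed J only), and without 4i/L/b replicate 1, 8 were higher, or 10 without 4i/L/b replicate 2 or 3, while without primed J3, by DESeq2, with primed K only or in the fit of all 8 groups, 2 were lower. PAX3, a paired-box factor of the dorsal neural tube and neural crest, measured 115, 104 and 117 CPM in 4i/L/b and 0 to 4.43 (median 1.57) CPM in primed cells (log2 fold change 6.03, SE 0.48, edgeR quasi-likelihood test with Benjamini-Hochberg adjusted p = 1.8e-07). ZIC1 measured 96.6, 96.1 and 92.7 CPM against 0 to 2.05 (median 0.708) CPM (log2 fold change 6.83, SE 0.41, edgeR quasi-likelihood test with Benjamini-Hochberg adjusted p = 1.1e-08). Its neighbour ZIC4 was at the floor in primed cells and measured 95.3, 98.45 and 85.6 CPM in 4i/L/b, at least 307-fold higher. GLI3, a factor of the Hedgehog pathway, measured 359, 360.4 and 374 CPM against 18.6 to 47.1 (median 35.5) CPM (log2 fold change 3.34, SE 0.19, edgeR quasi-likelihood test with Benjamini-Hochberg adjusted p = 6.1e-09). Each was clear of the primed range, as was DACH1 with a log2 fold change of 5.03. SOX1, a marker of early neural progenitors, at the floor in primed cells, measured 7.78, 7.78 and 5.005 CPM, at least 22.6-fold higher. PAX6 was not called, at 5.67, 4.98 and 3.85 CPM against 1.86 to 7.79 (median 2.71) CPM, and NES was not called, at 2385, 2630 and 2573 CPM against 2218 to 2562 (median 2475) CPM.

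The summed level of the 19 neural progenitor factors was 3385, 3596 and 3536 CPM in the 4i/L/b libraries and 2538 to 2832 CPM (median 2708) in the primed ones. Such a sum is weighted to the members with most counts and says little of the others. ZIC5 was the member that fell, with a log2 fold change of -1.61. The part of progenitor-like cells in these values was not tested.

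Of 16 proneural factors and neuron genes tested, 15 were higher and 1 lower (median log2 fold change 4.14, or 3.63 with genes at the floor at their bound). DCX, a microtubule protein of young neurons, measured 104, 98.45 and 90.1 CPM in 4i/L/b and 0 to 4.53 (median 2.53) CPM in primed cells (log2 fold change 5.21, SE 0.42, edgeR quasi-likelihood test with Benjamini-Hochberg adjusted p = 1.9e-07). TUBB3, the neuronal β-tubulin, measured 157, 144 and 139 CPM against 7.04 to 12.9 (median 10.4) CPM (log2 fold change 3.80, SE 0.16, edgeR quasi-likelihood test with Benjamini-Hochberg adjusted p = 3e-10). NEFL, the light neurofilament, measured 153, 124 and 133 CPM against 3.46 to 6.92 (median 4.31) CPM (log2 fold change 4.80, SE 0.18, edgeR quasi-likelihood test with Benjamini-Hochberg adjusted p = 1.6e-10). None of the primed libraries reached the 4i/L/b values. MAP2, of dendrites, had a log2 fold change of 2.26. SYT1, the calcium sensor of synaptic vesicles, was the exception, at 35.2, 35.98 and 36.1 CPM against 115 to 163 (median 139.8) CPM (log2 fold change -2.01, SE 0.12, edgeR quasi-likelihood test with Benjamini-Hochberg adjusted p = 1.5e-08). Summed, the 20 genes gave 1399.5, 1289.7 and 1279 CPM in 4i/L/b and 267 to 364 CPM (median 302) in primed cells. The part of neuron-like cells was not tested.

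Some factors that set position along the neural tube rose. Of 15 regional patterning factors tested, 7 were higher and 4 lower (median log2 fold change 1.77, and 2.61 with primed K only), 6 to 9 and 3 to 4 over the alternatives, and 13 others had too few counts. The roof plate factors LMX1A and LMX1B rose, with log2 fold changes of 5.21 and 3.99. OLIG3, of dorsal progenitors, had 0 counts in all primed libraries and measured 1.44, 2.19 and 1.35 CPM in 4i/L/b, at least 5.48-fold higher. EGR2, a hindbrain factor and immediate-early gene, fell with -1.44. The forebrain and eye factors SIX3, SIX6 and RAX and the ventral factor NKX2-1 had 0 counts in all 9 libraries. Summed, the 28 factors gave 206, 205 and 225 CPM in 4i/L/b and 309.9 to 388 CPM (median 338.5) in primed cells.

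Of 16 HOX genes tested, 5 were higher and 2 lower (median log2 fold change -0.14). The count of 2 was 0 without 4i/L/b replicate 1 or 2 and 1 without 4i/L/b replicate 3, primed J2, J3 or K3, with the replicate block or in the fit of all 8 groups, and the median ran from -0.53 to 1.47 over the alternatives, so no direction is given for the family. The genes at the start of the clusters, which are used in the hindbrain, were those that rose. HOXA2 measured 14.7, 19.6 and 19.3 CPM in 4i/L/b and 0 to 0.622 (median 0) CPM in primed cells (log2 fold change 6.76, SE 0.81, edgeR quasi-likelihood test with Benjamini-Hochberg adjusted p = 8.7e-06). HOXB2 measured 21.8, 27.6 and 27.5 CPM against 2.16 to 3.81 (median 2.42) CPM (log2 fold change 3.24, SE 0.27, edgeR quasi-likelihood test with Benjamini-Hochberg adjusted p = 2.7e-07). HOXA3 and HOXB3 had log2 fold changes of 4.72 and 3.76, and the 2 lower genes, HOXB8 and HOXB9, -2.48 and -2.07. For all 6 the groups did not overlap. HOXB8 was not called in any case with a lower count given above (-2.81 to -1.97) or with no filter on low counts (-2.43), nor HOXB9 without 4i/L/b replicate 1 or 2 (-1.90 and -2.02).

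Neural crest regulators were higher in 8 of 13 cases, 7 to 10 over the alternatives, and lower in 1 (median log2 fold change 2.10). SOX10, a factor kept in crest cells that become glia and pigment cells, measured 29.4, 42.5 and 33.5 CPM in 4i/L/b and 0 to 2.71 (median 1.95) CPM in primed cells (log2 fold change 4.56, SE 0.72, edgeR quasi-likelihood test with Benjamini-Hochberg adjusted p = 0.00011). TFAP2B measured 63.2, 69.3 and 66.5 CPM against 0 to 3.46 (median 0.222) CPM (log2 fold change 6.18, SE 0.73, edgeR quasi-likelihood test with Benjamini-Hochberg adjusted p = 8.1e-06). NGFR, the neurotrophin receptor used to sort crest cells, measured 32.7, 40.5 and 30.7 CPM against 2.57 to 3.78 (median 2.92) CPM (log2 fold change 3.44, SE 0.22, edgeR quasi-likelihood test with Benjamini-Hochberg adjusted p = 2.5e-08). In each, all 4i/L/b libraries were above the primed ones. EDNRB and SNAI2 rose too, with log2 fold changes of 4.46 and 3.25. FOXD3, a factor of early crest that PSCs also express, measured 2.21, 2.7955 and 4.81 CPM against 17.5 to 41.1 (median 28.8) CPM (log2 fold change -3.19, SE 0.33, edgeR quasi-likelihood test with Benjamini-Hochberg adjusted p = 2.3e-06). The 13 genes summed to 814, 862 and 826 CPM in the 4i/L/b libraries and to 186 to 264 CPM (median 205) in the primed ones. ETS1 had a log2 fold change of 2.10, and the part of crest-like cells was not tested.

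**Figure D3:**
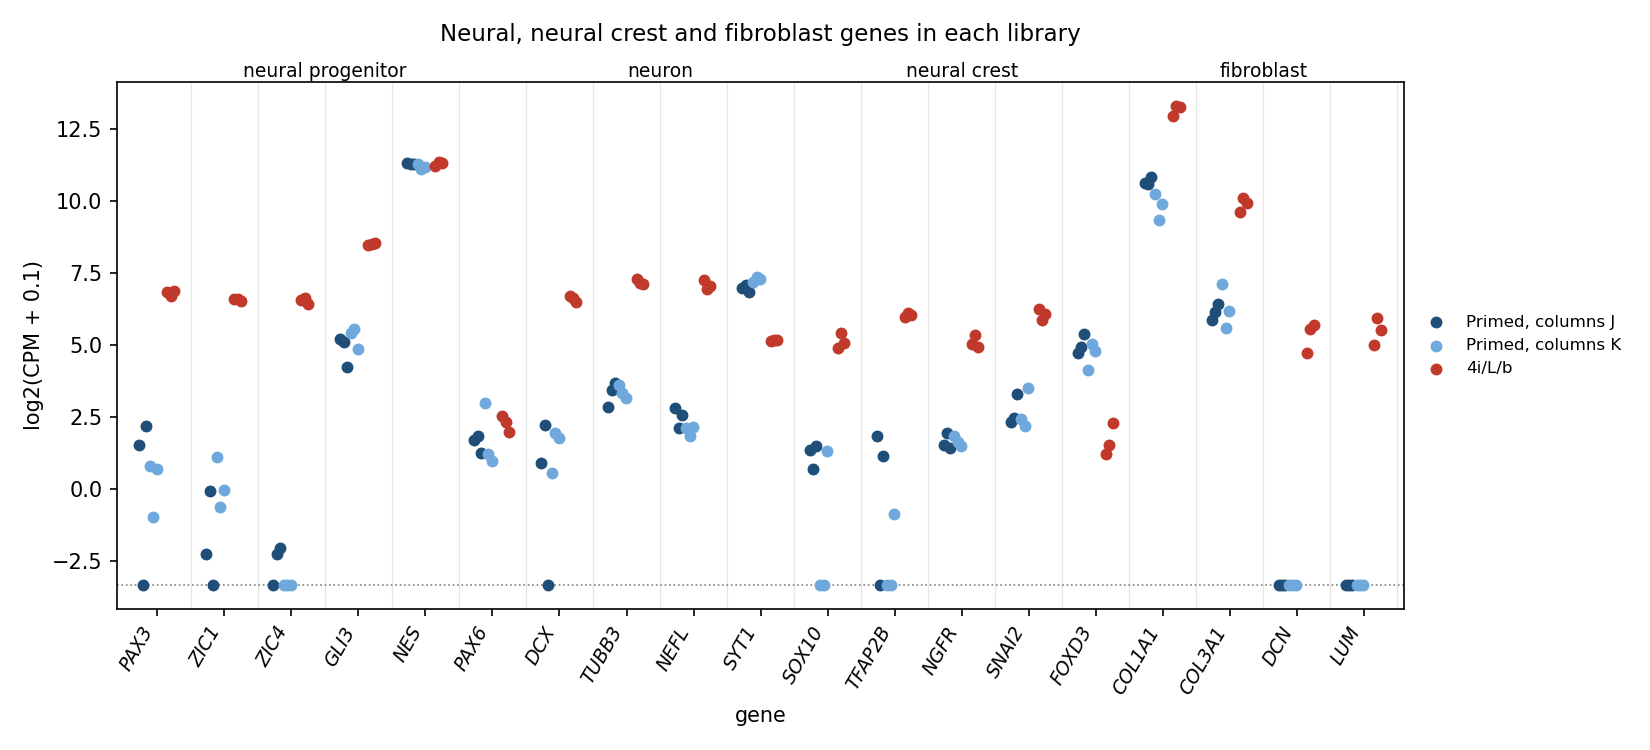
Each point is 1 library, as log2(CPM + 0.1), for neural progenitor, neuron, neural crest and fibroblast genes; dark blue marks primed J, light blue primed K and red 4i/L/b, and the dotted line is 0 counts. NES and PAX6 overlap between the groups, SYT1 and FOXD3 are lower in 4i/L/b, and the other genes drawn are higher.

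Collagens and other fibroblast genes rose, and some of them took a large share of the counts. Of 14 fibroblast and mesenchymal markers, 12 were higher and 2 lower (median log2 fold change 3.31). The count of 2 was 0 when any of the 4i/L/b libraries, primed J2 or primed J3 was left out, and 1 without primed J1, K1 or K3. COL1A1, the main chain of collagen I, measured 7827, 10043 and 9809 CPM in 4i/L/b and 653 to 1807.5 (median 1371) CPM in primed cells (log2 fold change 2.79, SE 0.23, edgeR quasi-likelihood test with Benjamini-Hochberg adjusted p = 2.5e-07). COL3A1 measured 782, 1108 and 981 CPM against 48.4 to 139 (median 71.9) CPM (log2 fold change 3.55, SE 0.24, edgeR quasi-likelihood test with Benjamini-Hochberg adjusted p = 3.7e-08). COL6A3 measured 801, 1031 and 966 CPM against 14.999 to 42.8 (median 29.5) CPM (log2 fold change 4.91, SE 0.21, edgeR quasi-likelihood test with Benjamini-Hochberg adjusted p = 4.2e-10). No primed library came near the 4i/L/b values. The proteoglycans DCN and LUM, markers of fibroblasts, had 0 counts in all 6 primed libraries and measured 26.2, 46.4 and 51.3 CPM and 32.2, 61.9 and 45.9 CPM, at least 136-fold and 154-fold higher. The 2 that went the other way were S100A4, with a log2 fold change of -1.87, and the surface marker THY1, with -0.40, and in both the groups overlapped. S100A4 was not called without any of the 4i/L/b libraries or primed J1, J2 or J3, or with primed K only (-0.02), nor THY1 without any of the 4i/L/b libraries or primed J2, J3, K1 or K3 (-0.48 to -0.28) or with other filters. DESeq2, upper-quartile factors, the replicate block and primed J or K only each called 1 of them. POSTN, of activated fibroblasts, and the smooth muscle actin ACTA2 had log2 fold changes of 3.88 and 3.99. The summed level of the markers was 16169, 20019 and 19271 CPM in 4i/L/b and 2349.8 to 3594 CPM (median 3429) in primed cells. The part of fibroblast-like cells, including feeder cells, in the other results was not tested.

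The balance of epithelial and mesenchymal genes shifted. Of 10 epithelial genes tested, 9 were lower (median log2 fold change -3.55, and -1.70 with primed K only), and 1 was called higher with primed K only, without primed J2 or in the fit of all 8 groups. When any of the 4i/L/b libraries or primed J1 or J2 was left out, 7 were lower. CDH1, the E-cadherin that holds PSC colonies together, measured 2.11, 3.04 and 2.79 CPM in 4i/L/b and 30.6 to 108 (median 66.1) CPM in primed cells (log2 fold change -4.75, SE 0.45, edgeR quasi-likelihood test with Benjamini-Hochberg adjusted p = 1e-06). EPCAM measured 8.36, 12.9 and 9.91 CPM against 147 to 207 (median 177) CPM (log2 fold change -4.12, SE 0.16, edgeR quasi-likelihood test with Benjamini-Hochberg adjusted p = 2.1e-10). ESRP1, a splicing regulator of epithelial cells, measured 1.92, 1.94 and 2.21 CPM against 121 to 177 (median 153) CPM (log2 fold change -6.22, SE 0.19, edgeR quasi-likelihood test with Benjamini-Hochberg adjusted p = 1.6e-11). All were below each primed library, and ESRP2 had a log2 fold change of -5.34. The list summed to 263, 261 and 258 CPM against 986 to 1295 CPM (median 1074).

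Of 13 mesenchymal-transition genes, 10 were higher and 1 lower, or 2 lower without primed K3, with primed J only, by DESeq2 or in the fit of all 8 groups (median log2 fold change 1.57). VIM, vimentin, measured 2890.5, 2835 and 2932 CPM in 4i/L/b and 454 to 839 (median 639.96) CPM in primed cells (log2 fold change 2.11, SE 0.15, edgeR quasi-likelihood test with Benjamini-Hochberg adjusted p = 7.4e-08). FN1, fibronectin, measured 7842, 9901 and 9015.5 CPM against 786 to 1652 (median 1240.4) CPM (log2 fold change 2.78, SE 0.17, edgeR quasi-likelihood test with Benjamini-Hochberg adjusted p = 1.6e-08). ZEB1, a repressor of CDH1, measured 267, 233 and 226 CPM against 22.7 to 46.5 (median 35.8) CPM (log2 fold change 2.72, SE 0.16, edgeR quasi-likelihood test with Benjamini-Hochberg adjusted p = 8.9e-09). The groups were apart in each. CDH2, N-cadherin, rose with a log2 fold change of 1.57, and SNAI1, another repressor of CDH1, fell with -1.65. The sum was 15494, 18459 and 17266 CPM in 4i/L/b and 2546 to 4265 CPM (median 3325) in primed cells.

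Of 11 endoderm markers tested, 5 were higher and 2 lower (median log2 fold change 2.28, from 1.70 with primed J only to 5.52 with primed K only), summing to 81.8, 94.6 and 92.9 CPM in 4i/L/b and 37.4 to 60.3 CPM (median 42.1) in primed cells. APOA1, an apolipoprotein, measured 22.6, 32.7 and 30.4 CPM against 9.06 to 16.8 (median 12.8) CPM (log2 fold change 1.14, SE 0.23, edgeR quasi-likelihood test with Benjamini-Hochberg adjusted p = 0.00083). HNF4A, a liver and gut factor at 0 counts in all primed libraries, measured 4.03, 3.89 and 5.68 CPM, at least 14.97-fold higher. The defining factors were not called: SOX17 measured 3.84, 3.77 and 2.98 CPM against 0 to 2.48 (median 0) CPM, GATA4 7.11, 5.47 and 7.89 CPM against 0 to 7.86 (median 0.401) CPM, and GATA6 7.11, 9.72 and 7.99 CPM against 0 to 7.29 (median 0.447) CPM. Without primed J2 SOX17 was called higher, and without primed J3 so were GATA4 (log2 fold change 3.03) and GATA6 (3.85). For SOX17 the fitted log2 fold change was then 6.85. This is not a bound, as the primed libraries left had 0 to 0.0856 CPM and were at the floor. With primed K only, 9 of the markers were called higher. FOXA3, of gut endoderm, fell with -3.00, and with primed J only 1 of the 2 lower markers was called. CXCR4, a receptor of definitive endoderm, measured 25.7, 26.9 and 25.6 CPM against 0 to 11.7 (median 0.458) CPM (log2 fold change 3.40, SE 1.00, edgeR quasi-likelihood test with Benjamini-Hochberg adjusted p = 0.01), and it was not called by DESeq2. AFP was at the floor in 4i/L/b and had 0 counts in 1 primed library, so that the groups overlapped. The part of endoderm-like cells was not tested.

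Of 10 mesoderm markers tested, 3 were higher and 2 lower (median log2 fold change 0.50, from -0.05 with primed J only to 1.28 with primed K only). Leaving out 4i/L/b replicate 2, primed K1 or K3 gave medians of 0.30, 0.31 and 0.30, and leaving out primed J2 or J3 gave 0.83 and 1.01. The count of 3 was 1 when any of the 4i/L/b libraries or primed J1, J2 or K2 was left out. PDGFRA, a receptor of mesoderm and fibroblasts, measured 21.9, 31.2 and 28.7 CPM against 0.335 to 7.45 (median 3.49) CPM (log2 fold change 2.76, SE 0.51, edgeR quasi-likelihood test with Benjamini-Hochberg adjusted p = 0.00044). KDR, the VEGF receptor, measured 11.3, 15.8 and 15.4 CPM against 50.9 to 82.4 (median 71.5) CPM (log2 fold change -2.31, SE 0.20, edgeR quasi-likelihood test with Benjamini-Hochberg adjusted p = 3.7e-07). The primitive streak factor MIXL1 was lower, with a log2 fold change of -2.54. All 3 differed without overlap. MSGN1 had 0 counts in all 9 libraries, and the list summed to 62.1, 87.1 and 76.7 CPM against 76.5 to 126 CPM (median 101), ranges that overlapped.

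Of 9 trophoblast and amnion markers tested, 2 were higher and 2 lower (median log2 fold change 1.12, from 0.60 with primed J only to 1.83 with primed K only). The 2 higher were 1 without 4i/L/b replicate 1 or 3, 4 without primed J3, and 5 by DESeq2, with primed K only or in the fit of all 8 groups, and the 2 lower were 1 without 4i/L/b replicate 1 or 2. VTCN1, an immune checkpoint protein of trophoblast and amnion, measured 0.288, 0 and 0.962 CPM in 4i/L/b and 105 to 143 (median 111) CPM in primed cells (log2 fold change -8.03, SE 0.35, edgeR quasi-likelihood test with Benjamini-Hochberg adjusted p = 4.3e-10). GABRP, also of amnion, had 0 counts in all primed libraries and measured 2.02, 0.972 and 2.02 CPM, at least 5.51-fold higher. The placental hormone subunit CGA and the trophoblast factor CDX2 had 0 counts in all primed libraries and were too low to be tested. Summed, the list gave 171, 184 and 202 CPM in 4i/L/b and 181 to 219 CPM (median 200.03) in primed cells.

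Of 5 blood and endothelial markers tested, 1 was lower, or 2 without primed J3 or with primed K only, and with primed J only 1 was higher. The median log2 fold change was -1.13, but -0.02 without primed J3, so no direction is given for the list. This was CDH5, the cadherin of endothelium, at 0.0961, 0.243 and 0.385 CPM against 3.13 to 8.95 (median 7.01) CPM (log2 fold change -4.78, SE 0.68, edgeR quasi-likelihood test with Benjamini-Hochberg adjusted p = 4.3e-05), below each primed library. The pan-leukocyte gene PTPRC had 0 counts in all primed libraries. The list summed to 42.9, 48.98 and 45.7 CPM in 4i/L/b and 21.8 to 73.9 CPM (median 49.8) in primed cells.

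**Figure D4:**
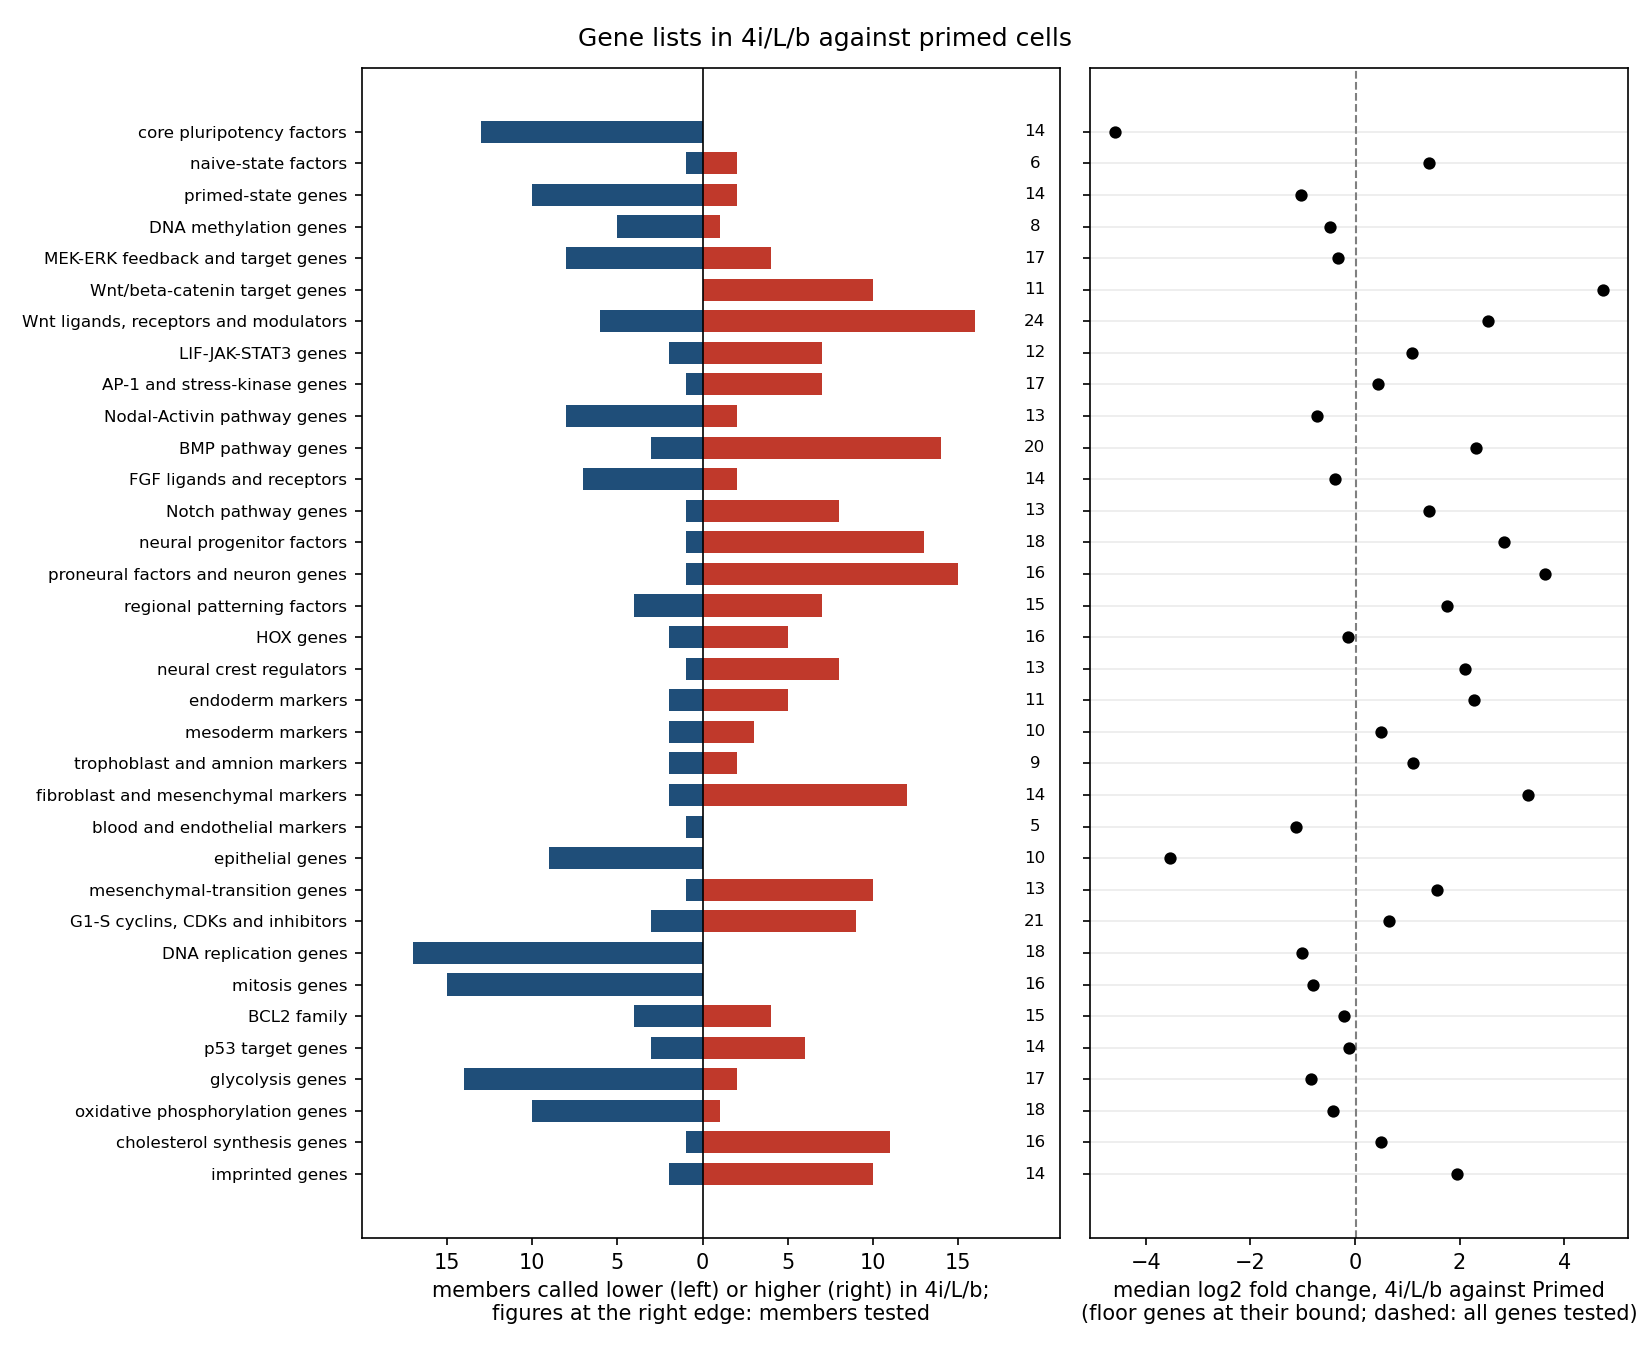
For each gene list, bars give the number of members called lower (left, blue) and higher (right, red) in 4i/L/b, with the number tested at the right edge, and points give the median log2 fold change with genes at the floor at their bound. By this median, core pluripotency factors (-4.60, 13 of 14 lower) and Wnt/β-catenin target genes (4.74, 10 of 11 higher) lie at the 2 ends. The dashed line marks the 0.01 of all genes.

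Most DNA replication and mitosis genes were lower, by smaller amounts. Of 18 DNA replication genes, 17 were lower (median log2 fold change -1.01). MCM4, a subunit of the replicative helicase, measured 219.6, 189 and 199 CPM in 4i/L/b and 456 to 549 (median 499) CPM in primed cells (log2 fold change -1.35, SE 0.09, edgeR quasi-likelihood test with Benjamini-Hochberg adjusted p = 2.3e-08). ORC1 and CDC6, which load that helicase, had log2 fold changes of -1.73 and -1.56. Of 16 mitosis genes, 15 were lower (median log2 fold change -0.80), and 1 was called higher when any of the primed libraries was left out, by DESeq2, with upper-quartile factors, with primed J or K only and in the fit of all 8 groups. MKI67, a marker of cycling cells, measured 691, 613 and 597 CPM against 1408 to 1526 (median 1473) CPM (log2 fold change -1.26, SE 0.07, edgeR quasi-likelihood test with Benjamini-Hochberg adjusted p = 2.7e-09). CDC20, the activator of anaphase, had a log2 fold change of -1.60. The groups did not overlap in these 5 genes. Summed, the mitosis genes gave 3653.5, 3329 and 3363 CPM in 4i/L/b and 5646 to 6692 CPM (median 5954.5) in primed cells.

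Of 21 G1-S cyclins, CDKs and inhibitors, 9 were higher and 3 lower (median log2 fold change 0.65, and 0.33 with primed K only), the share of lower genes being below the 29.0% of all genes. Without 4i/L/b replicate 2 or 3, 5 were higher, while of all genes 2930 and 2938 were higher, down from 3605. With primed J only or in the fit of all 8 groups, 12 of the list were higher. As the count varied in this way, no direction is given for the list. CDKN1A, the p21 inhibitor and a p53 target, measured 73.4, 68.4 and 70.1 CPM in 4i/L/b and 2.66 to 14.8 (median 5.67) CPM in primed cells (log2 fold change 3.32, SE 0.38, edgeR quasi-likelihood test with Benjamini-Hochberg adjusted p = 6.2e-06). CCNE1, cyclin E, measured 27.8, 28.6 and 33.4 CPM against 85.6 to 111 (median 99.05) CPM (log2 fold change -1.75, SE 0.13, edgeR quasi-likelihood test with Benjamini-Hochberg adjusted p = 6.3e-08). CDKN1A lay above and CCNE1 below all primed libraries. The D-type cyclin CCND2 rose with a log2 fold change of 0.82, whereas CCNA2, cyclin A, and E2F3 fell with -0.95 and -0.46.

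Genes of cell death showed no common direction. Of 15 BCL2 family genes tested, 4 were higher and 4 lower (median log2 fold change -0.21), and of 14 p53 target genes, 6 were higher and 3 lower (median -0.12). Over the alternatives the first median ran from -0.35 to -0.05 and the second from -0.17 to -0.02, with 4 to 6 p53 targets higher and 2 to 4 lower. BMF, a BH3 protein that promotes death, measured 71.6, 64.3 and 77.1 CPM in 4i/L/b and 8.73 to 18.999 (median 15.045) CPM in primed cells (log2 fold change 2.26, SE 0.19, edgeR quasi-likelihood test with Benjamini-Hochberg adjusted p = 3.2e-07). TNFRSF10B, the TRAIL receptor DR5, measured 218, 239 and 233 CPM against 24.6 to 47.3 (median 41.5) CPM (log2 fold change 2.52, SE 0.16, edgeR quasi-likelihood test with Benjamini-Hochberg adjusted p = 2.1e-08). PMAIP1, the BH3 protein NOXA, measured 9.13, 6.08 and 7.51 CPM against 17.3 to 33.3 (median 29.4) CPM (log2 fold change -1.91, SE 0.25, edgeR quasi-likelihood test with Benjamini-Hochberg adjusted p = 2.1e-05). The first 2 were above and PMAIP1 below the primed range. Of the lower p53 targets, XPC, of DNA repair, and MDM2, which degrades p53, had log2 fold changes of -0.54 and -0.44. MDM2 was not called without any of the 4i/L/b libraries or primed K2 or K3 (-0.45 to -0.29), with primed J only (-0.20), by DESeq2 (-0.35), with other factors or filters, or with the replicate block. BCL2L11 and BCL2L2, a promoter and an inhibitor of cell death, rose with log2 fold changes of 0.87 and 1.08.

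Glycolysis genes were lower in 14 of 17 cases and higher in 2 (median log2 fold change -0.84). HK2, which traps glucose in the cell, measured 68.7, 64.1 and 65.4 CPM in 4i/L/b and 268 to 354 (median 319) CPM in primed cells (log2 fold change -2.31, SE 0.10, edgeR quasi-likelihood test with Benjamini-Hochberg adjusted p = 5.8e-10). LDHA, which makes lactate, measured 193, 201 and 230.3 CPM against 394.5 to 1235 (median 747) CPM (log2 fold change -1.96, SE 0.34, edgeR quasi-likelihood test with Benjamini-Hochberg adjusted p = 0.00022). SLC2A1, the glucose carrier, measured 354, 409 and 384 CPM against 679 to 1291.5 (median 1035) CPM (log2 fold change -1.46, SE 0.19, edgeR quasi-likelihood test with Benjamini-Hochberg adjusted p = 1.8e-05). All 4i/L/b libraries were under the primed range. The phosphofructokinase genes PFKM and PFKL rose slightly, with log2 fold changes of 0.43 and 0.39. The list summed to 5977, 5711 and 6373 CPM against 9334 to 12375 CPM (median 10854).

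Of 18 oxidative phosphorylation genes, 10 were lower and 1 higher (median log2 fold change -0.42), and the 1, SDHA, with 0.41, was not called without 4i/L/b replicate 1 (0.43) or 2 (0.37) or with the replicate block. The 10 lower were 7 without 4i/L/b replicate 1 or 2, 8 without 4i/L/b replicate 3 or primed K1 or by DESeq2, and 11 with primed K only. COX5A, a subunit of cytochrome oxidase, measured 75.4, 70.01 and 78.1 CPM in 4i/L/b and 131 to 146 (median 138) CPM in primed cells (log2 fold change -0.93, SE 0.09, edgeR quasi-likelihood test with Benjamini-Hochberg adjusted p = 8.5e-07), with no overlap. Cholesterol synthesis went the other way, with 11 of 16 genes higher and 1 lower (median log2 fold change 0.50). FDFT1, squalene synthase, was the gene that fell, with a log2 fold change of -0.41, and with primed J only 2 were called lower.

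Several imprinted genes rose, some of them from near 0. Of 14 tested, 10 were higher and 2 lower (median log2 fold change 1.95), and without 4i/L/b replicate 1 or 2 or primed K3, or with primed J only, 1 was lower, while without 4i/L/b replicate 3, 8 were higher. IGF2, the fetal growth factor, measured 69.8, 108 and 88.9 CPM in 4i/L/b and 0 to 0.975 (median 0.0986) CPM in primed cells (log2 fold change 8.52, SE 0.48, edgeR quasi-likelihood test with Benjamini-Hochberg adjusted p = 5.2e-09). H19, the noncoding RNA of the same domain, measured 65.6, 105 and 75.8 CPM against 2.68 to 3.77 (median 3.37) CPM (log2 fold change 4.58, SE 0.18, edgeR quasi-likelihood test with Benjamini-Hochberg adjusted p = 2.1e-10). MEST measured 1209, 1313 and 1322 CPM against 137 to 156 (median 148) CPM (log2 fold change 3.09, SE 0.07, edgeR quasi-likelihood test with Benjamini-Hochberg adjusted p = 6.3e-13). All 3 were above the primed range, 4i/L/b replicate 2 being the highest for IGF2 and H19. PLAGL1, a factor that binds several of these genes, and DLK1 had log2 fold changes of 4.59 and 4.39. The 2 lower genes were NNAT, with -3.44 (-4.30 with primed J only and -0.86 with primed K only), and PHLDA2, a growth restrictor of the placenta, with -0.93. PHLDA2 overlapped between the groups and was not called in the cases with 1 lower gene (-0.83 to -0.79). Which allele the reads came from was not analysed.

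Beyond the lists, genes with the largest changes were named by rank. Among the 12 higher, SLIT1, a secreted axon guidance protein, measured 378, 422 and 369 CPM in 4i/L/b and 0 to 0.863 (median 0.210) CPM in primed cells (log2 fold change 10.09, SE 0.26, edgeR quasi-likelihood test with Benjamini-Hochberg adjusted p = 4.7e-12). C8H8orf4 and SSUH2, at the floor in primed cells, measured 62.3, 57.2 and 60.3 CPM and 42.8, 48.3 and 37.4 CPM, at least 198-fold and 141-fold higher. In each, the 3 libraries of 4i/L/b were close to each other. They were clear of primed cells, as the rule that chose the genes required.

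Among the 12 lower, IFITM1, an antiviral membrane protein, was at the floor in 4i/L/b and at 358 to 443 (median 381) CPM in primed cells, at least 1240-fold lower. HNF4G and MGAT4C had 0 counts in all 4i/L/b libraries, with primed levels of 28.6 to 44.7 (median 31.2) CPM and 9.24 to 23.7 (median 13.3) CPM. They were at least 109.9-fold and 49.4-fold lower. GALR1, a galanin receptor, and NR5A2, a nuclear receptor that binds the POU5F1 promoter in mouse PSCs, were at the floor too and at least 125-fold and 121-fold lower. LCK, a kinase known from T cells, measured 0, 0.122 and 0.481 CPM against 128 to 148 (median 137) CPM (log2 fold change -9.33, SE 0.29, edgeR quasi-likelihood test with Benjamini-Hochberg adjusted p = 2.7e-11). None of these ranges touched, as the rule that chose the genes required.

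Genes were also ranked by difference in mean CPM, which favours those with many counts, and 5 were taken in each direction. IGFBP5, a secreted binder of IGFs, measured 4147, 5056 and 4889.8 CPM in 4i/L/b and 43.7 to 189.8 (median 73.6) CPM in primed cells (log2 fold change 5.69, SE 0.35, edgeR quasi-likelihood test with Benjamini-Hochberg adjusted p = 1.4e-08). COL1A2 measured 2835, 3683 and 3427.5 CPM against 339.9 to 545 (median 451) CPM (log2 fold change 2.82, SE 0.13, edgeR quasi-likelihood test with Benjamini-Hochberg adjusted p = 6.6e-10). SSB, the La protein that binds the ends of new RNA polymerase III transcripts, measured 215, 180.5 and 207 CPM against 2362 to 2765 (median 2613.5) CPM (log2 fold change -3.72, SE 0.08, edgeR quasi-likelihood test with Benjamini-Hochberg adjusted p = 1.2e-12). The groups were far apart in each. The chaperones HSPA8 and HSP90AB1 fell with log2 fold changes of -1.30 and -1.16.

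Directly against NHSM-v, a medium of the same series, 30.7% of 14752 genes passed the test, 16.4% higher and 14.4% lower in 4i/L/b cells. With the 2 groups alone, 6532 genes were called (3270 higher, 3262 lower), against 4535 here (2413 higher, 2122 lower). The shares and the counts of members given here therefore hold for the fit of 8 groups. The tests against NHSM-v and TL2i share the 4i/L/b libraries and 1 estimate of spread over all 27 libraries. They are therefore given side by side with no overlap between them. EGR3, an immediate-early factor, was among the 5 higher genes with the largest change, at 341 ± 29.5 CPM in 4i/L/b and 10.4 ± 4.66 CPM in NHSM-v (SD, n = 3 each, log2 fold change 5.05, SE 0.34, edgeR quasi-likelihood test with Benjamini-Hochberg adjusted p = 2.3e-12). It was not called against primed cells, but was called higher without primed K3 (log2 fold change 0.33) and with primed J only (0.38). SOX10 and NGFR of the neural crest list followed the same direction, with log2 fold changes of 6.20 and 5.33, and 8 of the 13 crest regulators were higher and 2 lower. LIN28A (5.02), EPCAM (5.41) and APOA1 (7.08) were also higher on the log2 scale in 4i/L/b. Of 19 neural progenitor factors, 3 were higher and 8 lower than in NHSM-v, among the lower ZIC1 (-1.86), SOX1 (-2.60) and PAX6 (-2.27). ATP10A, a lipid flippase, led the lower genes, at 4.39 ± 1.36 against 118 ± 13.85 CPM (SD, n = 3 each, log2 fold change -4.75, SE 0.58, edgeR quasi-likelihood test with Benjamini-Hochberg adjusted p = 1.9e-07). ETV4 (-4.52) and BMP6 (-3.60) were other genes lower on the log2 scale.

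Against TL2i, which shares MEK and GSK3 inhibition and LIF, 19.9% of the 14752 genes passed, 10.6% higher and 9.23% lower. This share depends on the libraries fitted: with the 2 groups alone, 5814 genes were called (2923 higher, 2891 lower), against 2929 here, so the counts of members below hold for the fit of 8 groups. MEK-ERK genes set the groups apart: 15 of 17 were higher in 4i/L/b, with a median log2 fold change of 1.60 against -0.03 for all genes. EGR1 measured 436 ± 31.5 CPM in 4i/L/b and 35.8 ± 6.62 CPM in TL2i (SD, n = 3 each, log2 fold change 3.60, SE 0.16, edgeR quasi-likelihood test with Benjamini-Hochberg adjusted p = 3.7e-16). SPRY4 (3.13) and DUSP6 (2.64) were higher on the log2 scale as well. AP-1 and stress-kinase genes were higher in 9 of 17 cases, and fibroblast and mesenchymal markers in 13 of 14. CCL2, a chemokine, led the higher genes, at 66.5 ± 13.3 against 1.15 ± 0.858 CPM (SD, n = 3 each, log2 fold change 5.82, SE 0.76, edgeR quasi-likelihood test with Benjamini-Hochberg adjusted p = 8e-07). LIF was among the 5 genes with the largest change, at 112.5 ± 1.44 against 4.88 ± 0.612 CPM (SD, n = 3 each, log2 fold change 4.53, SE 0.30, edgeR quasi-likelihood test with Benjamini-Hochberg adjusted p = 1.9e-12).

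In the other direction, 16 of 16 mitosis genes, 12 of 18 DNA replication genes and 14 of 17 glycolysis genes were lower in 4i/L/b than in TL2i, as were 7 of 12 epithelial genes. LDHA measured 208 ± 19.7 CPM in 4i/L/b and 971 ± 131 CPM in TL2i (SD, n = 3 each, log2 fold change -2.22, SE 0.26, edgeR quasi-likelihood test with Benjamini-Hochberg adjusted p = 1.2e-07). MKI67 had a log2 fold change of -0.71 and PODXL of -2.84. GABRP led the lower genes, at 1.67 ± 0.604 against 71.5 ± 19.8 CPM (SD, n = 3 each, log2 fold change -5.39, SE 0.78, edgeR quasi-likelihood test with Benjamini-Hochberg adjusted p = 1.4e-05). FOXD3 measured 3.27 ± 1.365 against 42.7 ± 5.13 CPM (SD, n = 3 each, log2 fold change -3.70, SE 0.47, edgeR quasi-likelihood test with Benjamini-Hochberg adjusted p = 4.9e-07). The neural tube and crest factor PAX7 followed, with -3.60, while 6 of the 13 crest regulators were lower and 1 was higher. AXIN2 was lower too, with -0.81, and LEF1 was not called, at 148 ± 8.38 against 152 ± 16.5 CPM (SD, n = 3 each).

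In direct tests against each of the 7 other groups, 108 genes (0.732% of 14752) were higher in 4i/L/b and 48 (0.325%) lower every time. Without 4i/L/b replicate 2, 24 were lower, without 4i/L/b replicate 3, 28, and without primed J3, 60. The 7 tests share the 4i/L/b libraries. MMP3, stromelysin, a protease that cuts the matrix, had the largest margin, at 28.03 ± 7.91 CPM (SD, n = 3), with 2.05 CPM in TL-CDK8i, the nearest group. CSF1, a growth factor for macrophages, measured 258 ± 27.1 CPM in 4i/L/b and 43.2 ± 5.41 CPM in NHSM-v, its nearest group (SD, n = 3 each, log2 fold change 2.58, SE 0.26, edgeR quasi-likelihood test with Benjamini-Hochberg adjusted p = 5.1e-09). NR4A3, an immediate-early nuclear receptor, measured 133.5 ± 12.9 CPM against 29.5 ± 1.38 CPM in TL2i, its nearest group (SD, n = 3 each, log2 fold change 2.18, SE 0.31, edgeR quasi-likelihood test with Benjamini-Hochberg adjusted p = 5.2e-06). HBEGF, a ligand of the EGF receptor, measured 261 ± 22.97 CPM against 92.3 ± 4.96 CPM in NHSM-v (SD, n = 3 each, log2 fold change 1.50, SE 0.23, edgeR quasi-likelihood test with Benjamini-Hochberg adjusted p = 1.1e-05). By the rule that chose these 4 genes, the mean of 4i/L/b was the highest of the 8 groups. The fibroblast markers DCN and LUM belonged here too, at 41.3 ± 13.3 and 46.65 ± 14.9 CPM (SD, n = 3 each), as did MAFF, RELB, THBS1 and RGS16, with smallest log2 fold changes of 2.09, 1.49, 1.49 and 1.47. So did list members named above: FOSL2, PHLDA1, JAG1, ETS1, COL3A1, COL1A2 and TNFRSF10B. Of the 14 fibroblast and mesenchymal markers, 4 were higher in 4i/L/b than in each of the 7 groups. Against NHSM-v, 4 of the 14 were higher and 5 lower, with a median log2 fold change of -0.09.

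ID1 led the genes lower in 4i/L/b than in every other group. Its mean was 6.135 ± 1.73 CPM in 4i/L/b and 25.25 ± 3.79 CPM in TL2i, the nearest group (SD, n = 3 each, log2 fold change -2.06, SE 0.23, edgeR quasi-likelihood test with Benjamini-Hochberg adjusted p = 3.2e-08). The highest mean was that of E-NHSM, at 103 CPM. ZIC2 of the primed-state list was here too, at 111 ± 6.19 CPM against 194 ± 40.2 CPM in TL-CDK8i (SD, n = 3 each). CAMSAP3, which anchors the minus ends of microtubules in epithelial cells, FAM83D, a spindle protein, and KIF18B, a mitotic kinesin, were lower as well, with smallest log2 fold changes in size of 1.15, 1.07 and 0.84.

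**Figure D5:**
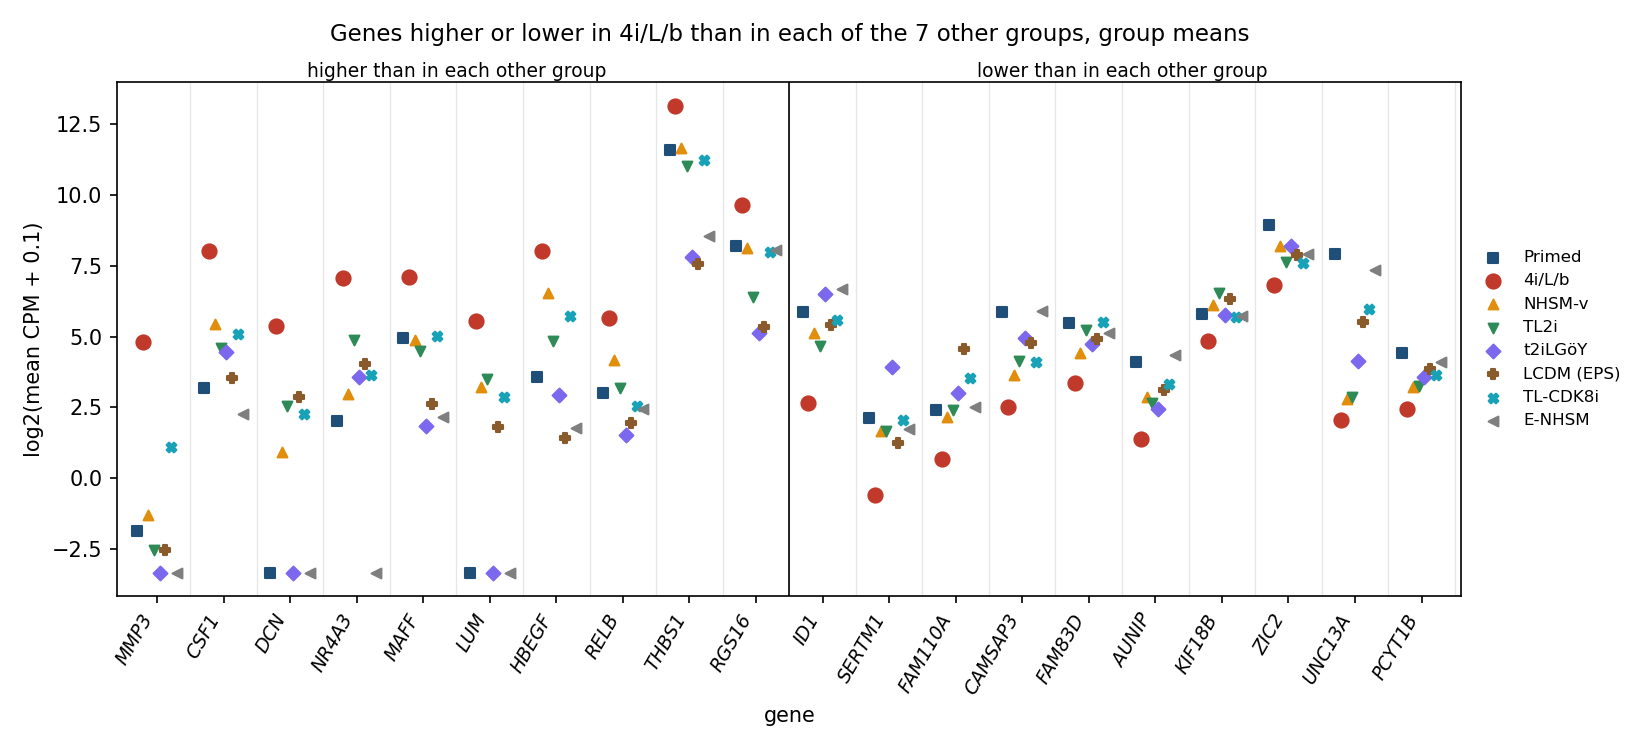
Each symbol is the mean of a group, as log2(mean CPM + 0.1), for the 10 genes with the largest margin on either side; large red circles are 4i/L/b. CSF1 stands at 258 CPM in 4i/L/b with NHSM-v next, and ID1 at 6.13 CPM with TL2i next.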

How the data were processed

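RNA was measured in 27 libraries of cells of a rhesus PSC line, of which 3 of 4i/L/b and 6 of primed cells are compared here. The deposited values are counts per gene that the authors made, per their processing notes, with bcl2fastq, cutadapt, HISAT2 and HTSeq. Versions, genome build, annotation and the strand setting of the counting are not given in the sources used here, so reads of pseudogenes of POU5F1 or NANOG may be misassigned. No column of values was left unused. Depth of each library is given with the results; the 3-count floor averaged 0.314 CPM in 4i/L/b and 0.303 CPM in primed libraries.

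Counts were tested in R 4.3.3 with edgeR 4.0.16 (limma 3.58.1): TMM factors, filterByExpr by group, quasi-likelihood F-test, Benjamini-Hochberg adjustment over all genes tested, adjusted p under 0.05. Libraries of 4i/L/b and primed cells were fitted alone; tests against NHSM-v, TL2i and each of the 7 other groups came from 1 fit of the 8 groups. Of 17967 genes, 4409 were not tested in the first. SE is the absolute log2 fold change over the square root of F. CPM used TMM factors of all 27 libraries, and log2 ratios of mean CPM exceeded fitted log2 fold changes by a median of 0.04. The code was tested on simulated counts.

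Genes were named by rule: members of 34 lists (570 entries, 524 of 546 distinct symbols found), the 12 with the largest called fold change in each direction with mean log2 CPM of at least 3 and no overlap, the 5 with the largest difference in mean CPM, the 10 with the largest margin over each of the 7 groups, and the 5 with the largest fold change against NHSM-v and TL2i. Not all genes so chosen are printed: some whose call or sign changed under the alternatives were left unnamed, and some others are not reported here. Members and lists were chosen with earlier results of these data known. List medians are the same with genes at the floor at their bound, except for the core pluripotency and neuron lists. Alternatives were DESeq2 1.42.0, upper-quartile factors, other filters, a minimum fold change, a replicate block, other sets of libraries, and leaving out each library.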

Additional observations from a re-analysis of the deposited data

Results flagged for a closer look

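For the 6 primed libraries, 231 values were examined: levels of named genes, total counts, genes counted and the share of the top 10 genes. In 26, all of them gene levels, 1 library lay apart from the other 5. There Dixon's ratio (the distance to the next value over the whole range) exceeded its critical value for 6 values. For normally distributed values, chance alone sets apart about 1 in 20 such groups of 6. That rate does not hold where the other 5 libraries have 0 counts, since any count then gives a flag. The 26 are therefore not read against it. Each value follows in CPM, with the range of the other 5 in brackets. Primed J1: NOTUM 0.893 (all 0), FZD8 12.6 (26.4 to 34.2), MSX2 0.670 (all 0), HOXB3 3.797 (0 to 1.19), C8H8orf4 0.112 (all 0) and ATP10A 0.558 (0 to 0.0691). Primed J2: SP5 1.403 (0 to 0.143), SOX17 2.48 (0 to 0.0856) and SSUH2 0.108 (all 0). Primed J3: KLF4 2.43 (0 to 0.863), DUSP6 695 (523 to 559.7), MAP2 28.3 (75.2 to 102), LMX1B 3.57 (0 to 0.941), GATA6 7.29 (0 to 2.05), CXCR4 11.7 (0 to 2.697) and BCL2L2 7.86 (25.6 to 34.04). Primed K1: GREM1 23.1 (5.14 to 8.16), PAX6 7.79 (1.86 to 3.45) and IGFBP5 189.8 (43.7 to 93.9). Primed K2: TBX3 0.691 (0 to 0.143) and HOXA2 0.622 (0 to 0.143). Primed K3: LEF1 0.887 (all 0), LMX1A 1.33 (0 to 0.112), HOXB2 3.81 (2.16 to 2.57), IGF2 0.975 (0 to 0.143) and MMP3 1.06 (all 0). Many of these are genes near the floor in primed cells. Without the library set apart, KLF4, SOX17 and GATA6 were called higher in 4i/L/b, as given in the report. The ratio was not computed for the 3 libraries of 4i/L/b.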

How the results depend on the processing

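With an absolute log2 fold change of at least 1 required as well, 3928 genes were called against primed cells (2228 higher, 1700 lower), 1670 against NHSM-v (1074 higher, 596 lower), 1047 against TL2i (651 higher, 396 lower), 32 were higher and 6 lower than in each of the 7 groups; by construction this can only reduce counts. Fitting only the 2 groups compared gave 6532 genes called against NHSM-v (3270 higher, 3262 lower). Against TL2i it gave 5814 (2923 higher, 2891 lower), and the cause was not tested. DESeq2, other filters and upper-quartile factors gave 6595 to 7860 genes called against primed cells, primed J only 7382, primed K only 8498 and all 8 groups in 1 fit 8823. With DESeq2, upper-quartile factors, primed J or K only and all 8 groups, the median log2 fold change of all genes was at most 0.10.

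Leaving out 1 library gave 6254 to 8068 genes called against primed cells (2930 to 4022 higher, 3245 to 4046 lower), 3514 to 3791 against NHSM-v, 2185 to 2437 against TL2i, and 91 to 120 higher than in each of the 7 groups. Lower than in each were 24 without 4i/L/b replicate 2 to 60 without primed J3.

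The numbers in the column names were also used as a replicate block, which gave 7235 genes called against primed cells (3514 higher, 3721 lower). Nothing in the labels says that libraries are paired, and deviations of 6 same-number pairs from their group means correlated at -0.0394 to 0.0136, so the numbers were not used. With the block SOX17 was called higher, with 4.96.

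Of 217 named genes tested, 3 had a reversed sign in some alternative, and they were not called in the comparison reported. List members whose call or sign was seen to change under the alternatives were in part left unnamed, so the named genes may be more stable than the lists. TFAP2C was -0.30 with primed K only, was called higher, with 0.84 (adjusted p = 0.029), with primed J only, and ran from -0.0055 without primed J3 to 0.53 without primed K1. NES was -0.0102 with primed J only and ran from -0.0123 without 4i/L/b replicate 2 to 0.0901 without 4i/L/b replicate 1. TEK was called lower, with -0.50, with primed K only, and higher, with 2.01, with primed J only. CXCR4 was not called by DESeq2 (log2 fold change 3.38, adjusted p = 0.058, Wald test with Benjamini-Hochberg adjustment). With primed K only, KLF4 (3.30), SOX17 (6.51), GATA4 (5.52) and GATA6 (9.51) were called higher and TCF7 (-0.91) lower. These are fitted values, and they are not bounds where primed K was at the floor, as for SOX17. With all 8 groups in 1 fit, the fit of the other comparisons, KLF4 (2.04), SOX17 (3.07) and GATA6 (2.37) were called higher and TCF7 (-0.56) lower. EGR3 was called higher, with 0.38, with primed J only.

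Limits: 1 clone, 3 libraries of 4i/L/b and replicates of unstated origin mean that the p-values describe these libraries. Counts of bulk RNA give relative amounts, so a change in total RNA per cell is not seen. Cells of 4i/L/b and primed cells differ in medium, passaging and state, which these libraries cannot separate.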
